A study of Caenorhabditis elegans with 12 samples.

Results

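Ribosome footprints of the 2 let-7 mutant strains of the study were compared directly with each other: 3 libraries of VT3878, called U13A here, against 3 libraries of VT3797, called U18A, 6 of the 12 libraries of the series. VT3878 has the genotype lin-41(tn1541ma480);let-7(ma432), and its label adds that the effects downstream of lin-41 are left out of it. VT3797 has the genotype maIs105;let-7(ma435). The other 6 libraries are the matching controls, 3 of DG3913 with lin-41(tn1541) for U13A and 3 of VT1367 with maIs105 for U18A. All were whole Caenorhabditis elegans larvae of mid-L4, the last larval stage, harvested 45 h after feeding at 20 °C, and each library pools the animals of synchronized plates. Ribosome profiling sequences the short mRNA pieces that translating ribosomes cover, so counts rise with mRNA amount and with translation alike, and these cannot be told apart.

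Between the 2 mutants the alleles of let-7 and lin-41, the strain background and the deposited table change together, and their parts in a difference cannot be told apart. The U13A mutant and its control share tn1541, known as an allele that fuses GFP to lin-41. The U18A mutant and its control share maIs105, known as a col-19 promoter driving GFP. The difference between the 2 controls is therefore given beside the difference between the mutants. A further test, called the contrast here, asks whether the mutant difference departs from the control difference. A positive contrast means that U13A stood higher against U18A among the mutants than among the controls.

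let-7 is a microRNA that accumulates late in larval life and represses timing genes, which are called heterochronic. Its best known target is lin-41, an RNA-binding protein that represses lin-29 and mab-10, whose products drive the switch of the epidermis to the adult state. At that switch the seam cells fuse and a new cuticle with adult collagens is made. At each molt the worm first lays down a transient matrix, the precuticle, and then collagens in waves. Mid-L4 is also the stage at which the germline of the hermaphrodite turns from sperm to oocytes, so cuticle and oocyte genes change quickly with age at this stage.

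The tables were joined on 46711 gene names, of which 28774 had 0 counts in the 6 mutant libraries and 13139 passed the filter on low counts and were tested. Total counts were 13359763, 26975815 and 18439416 in U13A and 9446061, 13497993 and 17449666 in U18A. Replicates of a group correlated at 0.984 to 0.996 in log2 CPM across genes; CPM are a library's counts relative to its scaled total. The first principal component of all 12 libraries held 42.4% of the variance and set both U13A-side strains apart from both U18A-side strains, and the second, with 15.8%, set both mutants apart from both controls. The let-7 row held 0 counts in all 12 libraries, so the alleles could not be checked from it. Markers of body wall muscle, pharynx, neurons, sperm and the germline as a whole had 0 members called by edgeR between the mutants, with at most 1 member of each list at an unadjusted p under 0.05, and DESeq2 called 1 muscle marker. All 6 oocyte markers and 2 of 6 epidermis markers, bli-1 and lin-29, were lower in U13A, and 4 epidermis markers were called without U13A replicate C.

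Across the genome the mutants differed widely, and to a large part in the way their controls did. Of 13139 genes tested, 2248 passed the threshold of 0.05 on the adjusted p from edgeR, a share of 17.1%. Of these 1138 were higher in U13A (8.66%) and 1110 lower (8.45%), and 628 of the calls had a log2 difference of 1 or more in size. Over all genes the median was -0.0021. The count was 1368 without U18A replicate B and 2797 without U13A replicate C. CPM of the groups did not overlap for 4568 of the tested genes, or 34.8%, beside the 17.1% called.

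Between the controls 3224 of 13443 genes were called (24.0%), 1463 higher on the U13A side (10.9%) and 1761 lower (13.1%). That count was 2112 without the U18A control replicate B and 2121 without its replicate A. Of the genes called between the mutants and tested in both comparisons, 1062 were also called in the same direction between the controls, which is 47.8% of the mutant calls and 33.8% of the control calls. Another 81 were called in opposite directions. Across 13052 genes the 2 differences, which share no library, correlated with a Pearson r of 0.581 and a Spearman rho of 0.538; genes are not independent replicates, and both differences compare the same pair of tables and backgrounds. The contrast called 759 of 13597 genes (5.58%), 551 positive (4.05%) and 208 negative (1.53%). Among the 2248 genes called between the mutants, 391 were also called in the contrast, or 17.4%.

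**Figure D1:**
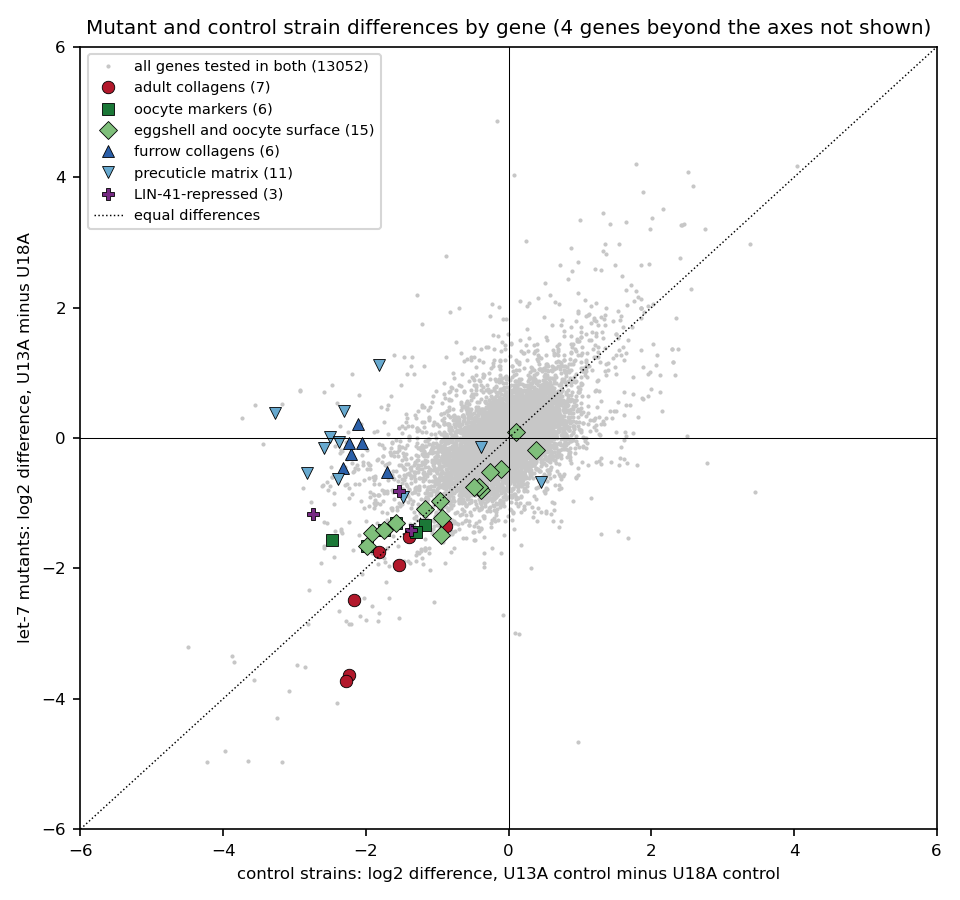
Each grey point is 1 of 13052 genes, with the log2 difference between the controls on the horizontal axis and that between the mutants on the vertical axis (U13A side minus U18A side in both), and the coloured symbols are members of 6 lists. Adult collagens and oocyte genes lie low on both axes, whereas the furrow collagens and most precuticle genes lie near 0 for the mutants and near -2 for the controls.

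The timing genes themselves separated the mutants, in both directions. Of 15 heterochronic genes tested, out of 20 in the table, 3 were higher in U13A and 6 lower, or 60.0%, beside 17.1% of all genes. Between the controls 1 of 16 tested was higher on the U13A side and 7 lower. Of the 9 mutant calls 7 were also called in the same direction between the controls, and 3 were called in the contrast. lin-41 was measured at 60.1, 51.6 and 48.4 CPM in U13A and at 132, 118 and 126 CPM in U18A. The groups did not overlap, and the log2 difference was -1.23 (SE 0.100, edgeR adjusted p 1.80e-06). The controls differed alike, with 45.3, 41.2 and 43.2 CPM against 76.1, 87.2 and 94.1 CPM (log2 -0.99, edgeR adjusted p 1.88e-05), and the contrast for lin-41 was -0.24 (edgeR adjusted p 0.420). What the tag or ma480 does to the counts of lin-41 was not tested.

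Of the 6 other reported let-7 targets tested, 2 were higher in U13A, 1 was lower and 3 were not called. hbl-1, a Hunchback-like transcription factor that holds back later larval fates, stood at 2.76, 2.39 and 2.83 CPM in U13A and at 0.452, 1.06 and 1.26 CPM in U18A (log2 1.39, SE 0.283, edgeR adjusted p 0.00383). daf-12, the nuclear receptor for dafachronic acids, stood at 13.7, 14.1 and 18.7 CPM against 7.47, 6.22 and 6.17 CPM (log2 1.25, SE 0.156, edgeR adjusted p 9.56e-05). For both genes every U13A library was above every U18A library. Between the controls hbl-1 differed by -0.32 (edgeR adjusted p 0.460) and daf-12 by -0.53 (edgeR adjusted p 0.0268), so the contrast was 1.72 for hbl-1 (edgeR adjusted p 0.0191) and 1.78 for daf-12 (edgeR adjusted p 1.23e-04). die-1, a zinc-finger gene, was lower in U13A by -0.50 (edgeR adjusted p 0.0243), a call that was lost without U13A replicate A or B or U18A replicate A or B, with adjusted p of up to 0.0913 without U18A replicate A. pha-4, let-60 and ztf-7 were not called, at -0.19, 0.18 and -0.16. Over the 7 targets tested the median was -0.16.

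Genes that LIN-41 is known to repress were lower in U13A, as lin-41 was. lin-29, the transcription factor of the larval to adult switch, stood at 3.59, 2.85 and 3.86 CPM in U13A and 6.11, 6.68 and 5.2 CPM in U18A (log2 -0.82, SE 0.183, edgeR adjusted p 0.00719). mab-10, its cofactor, stood at 0.971, 1.03 and 1.56 CPM against 4.3, 2.88 and 2.63 CPM (log2 -1.41, SE 0.269, edgeR adjusted p 0.00245). Neither gene overlapped between the groups. mab-3, a DM-domain factor, stood at 0.299, 0.499 and 0.346 CPM against 0.792, 1.14 and 0.80 CPM and was lower by -1.16, a call (edgeR adjusted p 0.0427) that was lost without any 1 of the 6 libraries. Between the controls the same 3 genes were lower on the U13A side by -1.54, -1.37 and -2.74, and 0 of the 3 were called in the contrast by edgeR or by DESeq2, with 2 at an unadjusted p under 0.05.

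lin-28, an RNA-binding protein of early larval fates, was higher in U13A at 13.2, 12.6 and 12.1 CPM against 6.56, 8.88 and 8.86 CPM (log2 0.62, SE 0.139, edgeR adjusted p 0.00720). The controls differed by 0.50 in the same direction. lin-42, the Period homolog that cycles with the molts, was lower at 5.83, 5.52 and 7.04 CPM against 9.84, 11.7 and 11.7 CPM (log2 -0.87, SE 0.146, edgeR adjusted p 9.85e-04). Its control difference was larger, at -1.83, and the contrast was 0.96 (edgeR adjusted p 0.0102). The microRNA Argonautes alg-1 and alg-2 were lower by -0.34 and -0.41 (edgeR adjusted p 0.0478 and 0.0127). The alg-1 call was lost under several alternatives, among them U13A replicate A left out, at an adjusted p of 0.178, and the alg-2 call without U13A replicate A or U18A replicate A, at up to 0.0608. lin-14, lin-66, sea-2, nhl-2, ain-1 and ain-2 were not called and lay between -0.16 and 0.097.

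Among 10 regulators of the molting cycle 3 were higher in U13A and 2 lower, or 50.0%, beside 17.1% of all genes. nhr-25, a nuclear receptor of molting and seam cell fate, was higher at 2.91, 2.60 and 3.17 CPM against 0.905, 1.44 and 1.03 CPM (log2 1.33, edgeR adjusted p 0.00200), and nhr-85, a Rev-erb homolog, was higher by 0.71 (edgeR adjusted p 0.00354). bed-3, a BED zinc-finger gene of the molting cycle, was lower at 2.91, 3.67 and 3.29 CPM against 7.58, 5.84 and 7.72 CPM (log2 -1.07, edgeR adjusted p 7.65e-04). blmp-1, a Blimp-1 homolog that times epidermal expression, was higher by 0.49 (edgeR adjusted p 0.0192), a call lost without U18A replicate B (adjusted p 0.120). For blmp-1 the controls differed the other way, by -0.63, and the contrast was 1.12 (edgeR adjusted p 4.26e-04). nhr-23, a receptor that peaks once per molt, was named after its values were seen: it stood at 15.2, 13.9 and 14.4 CPM in U13A and 15.6, 13.7 and 13.4 CPM in U18A, and the groups overlapped.

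**Figure D2:**
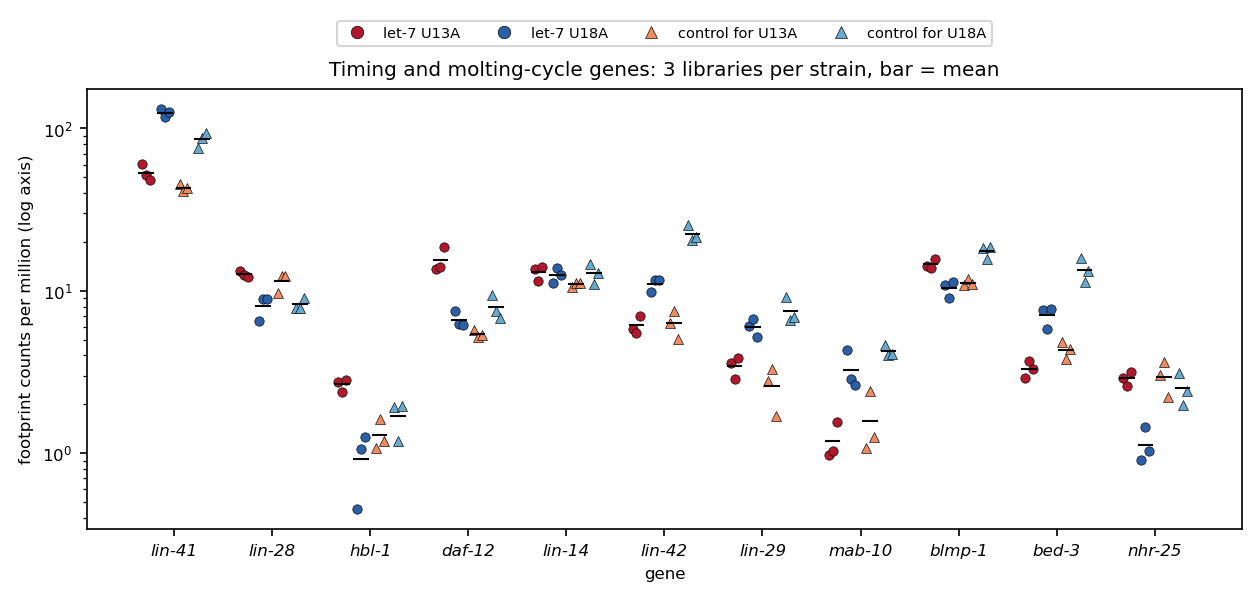
Footprint CPM of 11 timing and molting-cycle genes on a log axis, with 3 libraries of each strain as points and the mean as a bar. lin-41, lin-42, lin-29, mab-10 and bed-3 lie lower in both U13A-side strains, whereas hbl-1 and daf-12 are highest in the U13A mutant.

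Collagens gave some of the widest gaps. All 7 adult collagens were lower in U13A, by -3.73 to -1.35 with a median of -1.95, against a median of -0.0021 over all genes. Their summed level was 646 to 922 CPM in U13A and 2681 to 3410 CPM in U18A, and no library of one group reached the other. col-62 stood at 24.9, 21.1 and 39.0 CPM against 439, 429 and 257 CPM (log2 -3.73, SE 0.316, edgeR adjusted p 3.89e-04). Its neighbour col-7 had like counts in every library, so reads cannot be assigned to either. col-38 stood at 97.2, 98.1 and 123 CPM against 642, 568 and 584 CPM (log2 -2.49, SE 0.116, edgeR adjusted p 6.76e-09).

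The remaining adult collagens, col-19, col-49, col-63 and col-138, were lower by -1.35, -1.95, -1.75 and -1.52. col-19 is the gene whose promoter the U18A-side transgene carries, and whether the transgene adds to its counts was not tested. Without col-19 the summed level of the other 6 was 454 to 596 CPM in U13A and 2166 to 2643 CPM in U18A. Between the controls 6 of the 7 were also lower on the U13A side, with a median of -1.82, and 0 of 7 were called in the contrast by edgeR, with a median of -0.41. In the contrast 3 of the 7 had an unadjusted p under 0.05, and DESeq2 called 2 of 7.

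The numbered col genes, which include the 7 adult collagens above, differed in both directions. Of 130 numbered col genes tested, out of 159 in the table, 25 were higher in U13A and 35 lower, or 46.2%, and 41 of these 60 were called in the same direction between the controls. The widest gaps were at col-120, with 4.63, 6.55 and 4.90 CPM against 181, 165 and 170 CPM (log2 -4.97, SE 0.132, edgeR adjusted p 2.37e-11), and at col-60, with 7.10, 7.05 and 7.44 CPM against 252, 206 and 214 CPM (log2 -4.96, SE 0.117, edgeR adjusted p 9.26e-12). col-88 was lower by -4.06 and col-184 by -3.88. For col-120, col-60 and col-88 the mutant difference was wider than that of the controls, with contrasts of -1.79, -1.31 and -1.65 (edgeR adjusted p 2.13e-05, 1.94e-04 and 0.0124).

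In the opposite direction, col-54 stood at 33.6, 36.7 and 43.6 CPM in U13A and 2.26, 1.97 and 2.46 CPM in U18A (log2 4.08, SE 0.159, edgeR adjusted p 1.15e-09). An annotated noncoding RNA overlaps col-54 on the same strand. col-41 stood at 96.4, 99.4 and 159 CPM against 8.60, 8.58 and 13 CPM (log2 3.52, SE 0.266, edgeR adjusted p 1.05e-04). In both genes the U18A mutant was the lowest of the 4 strains: its control had 11.6, 9.26 and 6.32 CPM of col-54 and 61.4, 48.2 and 30.5 CPM of col-41. The contrast was called for col-54 (1.57, edgeR adjusted p 0.00208) and missed the threshold for col-41 (1.35, edgeR adjusted p 0.0981). col-176 was higher in U13A at 129, 84.0 and 200 CPM against 17.3, 13.5 and 19.8 CPM, with a control difference of 0.25 and a contrast of 2.78 (edgeR adjusted p 0.0103).

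Among 13 other collagens named for body shape 5 were lower in U13A and 0 higher, or 38.5%, beside 17.1% of all genes. Without U13A replicate C the count was 12. bli-1, a strut collagen of the adult cuticle, stood at 8.81, 8.90 and 10.6 CPM against 80.8, 87.9 and 91.2 CPM (log2 -3.20, SE 0.112, edgeR adjusted p 3.22e-10). Its partner bli-2 was lower by -1.43 and bli-6 by -1.53. For bli-1 and bli-2 the gap between the controls was wider still, at -4.49 and -2.43, and the contrasts were 1.30 and 1.01 (edgeR adjusted p 1.35e-04 and 7.66e-04). Of 12 collagen-processing enzymes 1 was higher and 2 lower, and 5 were called without U13A replicate C. dpy-18, a prolyl hydroxylase subunit, was lower by -0.83 (edgeR adjusted p 5.37e-04), and dpy-31, an astacin protease that trims procollagen, was higher by 0.64 (edgeR adjusted p 0.00515).

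The genes of the precuticle and of the annular furrows set the controls apart far more than the mutants. The 6 furrow collagens, dpy-2, dpy-3, dpy-7, dpy-8, dpy-9 and dpy-10, had 0 calls between the mutants, with differences between -0.52 and 0.22. DESeq2 also called 0 of 6, and 1 had an unadjusted p under 0.05 in each tool. Without U13A replicate C 3 were called. Between the controls all 6 were lower on the U13A side, with a median of -2.16, and 5 of the 6 were called in the contrast. dpy-7 can serve as an example, chosen after its values were seen: it stood at 8.29, 5.41 and 9.17 CPM in U13A and 6.67, 7.51 and 9.20 CPM in U18A, while the controls averaged 4.17 ± 0.811 CPM against 19.7 ± 4.67 CPM (SD, n = 3 each). The mutants overlapped and the controls did not.

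Of 11 precuticle genes 1 was higher in U13A and 1 lower, or 18.2%, near the share of all genes, with a median of -0.13. Without U13A replicate B the count was 4 and without U13A replicate C it was 5. Between the controls 9 of the 11 were lower on the U13A side, with a median of -2.38, and 7 were called in the contrast, all positive. let-653, a zona pellucida domain protein of the transient lumen matrix, stood at 8.74, 8.37 and 13.4 CPM in U13A against 4.98, 4.55 and 4.57 CPM in U18A (log2 1.12, SE 0.195, edgeR adjusted p 0.00137). Its control difference was -1.82, and the contrast 2.94 (edgeR adjusted p 6.86e-04). egg-6, a leucine-rich repeat protein of the same matrix, was lower by -0.90 (edgeR adjusted p 0.00117), as between the controls (-1.48). fbn-1, a fibrillin-like matrix protein named after its values were seen, differed by 0.38 between the mutants (edgeR adjusted p 0.176) and by -3.28 between the controls (edgeR adjusted p 1.22e-04).

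The molting effectors showed the same split in a milder form. Of 17 tested, 4 were higher in U13A and 2 lower, or 35.3%, beside 17.1% of all genes, and 10 were called without U13A replicate C. Between the controls 0 were higher and 11 lower, and 11 were called in the contrast, all positive, with a median of 1.00. The 4 that were higher were nekl-3, a kinase that acts in endocytosis at the epidermis during molting, and the ankyrin-repeat partners of the NEKL kinases, mlt-2, mlt-3 and mlt-4. The other kinase of the pair, nekl-2, differed by -0.26 (edgeR adjusted p 0.300). nekl-3 stood at 11.5, 11.1 and 11.9 CPM against 6.90, 6.07 and 6.74 CPM (log2 0.81, edgeR adjusted p 7.14e-04). mlt-2, listed in the tables as C01H6.2, was higher by 1.40 and mlt-3, listed as Y39C12A.1, by 0.88 (edgeR adjusted p 5.99e-04 and 0.00765), and mlt-4, named after its values were seen, by 0.81 (edgeR adjusted p 0.0144), a call lost without U18A replicate B (adjusted p 0.0820). mlt-10 and mlt-9, secreted or epidermal factors needed to shed the old cuticle, were lower by -0.86 and -0.61 (edgeR adjusted p 1.18e-04 and 0.00842).

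Secreted hedgehog-related proteins, many of them made by the epidermis in step with molting, had a high share of calls. Of 33 tested, out of 61 in the table, 6 were higher in U13A and 15 lower, or 63.6% against the 17.1% of all genes. The count was 12 without U13A replicate A and 12 without U18A replicate B. grl-27 stood at 1.79, 1.03 and 2.08 CPM against 26.7, 18.4 and 16.9 CPM (log2 -3.71, SE 0.254, edgeR adjusted p 2.83e-06). wrt-4 averaged 34.1 ± 6.26 CPM against 129 ± 7.33 CPM (SD, n = 3 each; log2 -1.92, SE 0.122, edgeR adjusted p 1.43e-07), and wrt-6 was lower by -1.65. The groups did not overlap in any of the 3. grd-10 was higher by 1.09 (edgeR adjusted p 0.0122). Between the controls 2 of 36 tested were higher on the U13A side and 20 lower. The contrast called 10 positive and 1 negative.

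Patched-related membrane proteins, which share the sterol-sensing fold of the hedgehog receptor, were called for 10 of 23, or 43.5%, beside 17.1% of all genes. Of these 2 were higher in U13A and 8 lower, and all 10 were called in the same direction between the controls. Between the controls 2 of 24 tested were higher on the U13A side and 16 lower, and the contrast called 7 positive and 0 negative. ptr-13 stood at 38.8, 33.7 and 45.1 CPM against 9.39, 9.33 and 8.57 CPM (log2 2.11, SE 0.132, edgeR adjusted p 1.27e-07). ptr-12 was higher by 1.28. The abu and pqn genes, many of which encode glutamine- and asparagine-rich proteins of the pharyngeal cuticle, were mostly lower where called. Of 69 tested 24 were lower and 1 higher in U13A, or 36.2%, with 15 called without U18A replicate B. abu-1 and pqn-2 had like counts in every library and were lower by -1.40 and -1.42, and abu-10 by -1.18 (edgeR adjusted p 3.20e-04, 4.18e-04 and 0.0115). Between the controls 7 of the 69 were higher and 12 lower. Astacin proteases had 4 higher and 1 lower of 28, or 17.9%, close to the share of all genes, and 8 were called without U13A replicate C.

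Oocyte genes were lower in U13A. In whole animals fewer cells of a type and less RNA per cell cannot be told apart. All 6 oocyte markers were lower, with a median of -1.42, and their summed level was 131 to 178 CPM in U13A and 430 to 503 CPM in U18A. All 6 are counted again in the oocyte lists that follow, so these results share genes. oma-1, oma-2 and puf-5 are among the RNA regulators, and rme-2, egg-1 and cbd-1 among the eggshell and oocyte surface genes. Sperm markers summed to 367 to 404 CPM against 398 to 409 CPM, and markers of the germline as a whole to 2186 to 2483 CPM against 2032 to 2136 CPM. In each of those 2 lists 0 of 6 members were called by edgeR or by DESeq2, and 1 had an unadjusted p under 0.05.

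Of 20 RNA regulators of oocytes 12 were lower in U13A and 0 higher, or 60.0%, beside 17.1% of all genes. The count was also 12 without any 1 of the 6 libraries. oma-2, a zinc-finger protein that represses translation in oocytes, stood at 2.84, 2.64 and 3.63 CPM against 8.48, 8.42 and 9.83 CPM (log2 -1.57, SE 0.170, edgeR adjusted p 2.70e-05). puf-5, a Pumilio-family repressor of oocytes, averaged 36.7 ± 1.27 CPM against 100 ± 5.70 CPM (SD, n = 3 each; log2 -1.44, SE 0.0916, edgeR adjusted p 1.40e-07). oma-1 was lower by -1.33. lin-41, which also acts in oocytes, is on this list.

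Most eggshell and oocyte surface genes were lower as well. Of 15 tested 13 were lower and 0 higher, or 86.7%, beside 17.1% of all genes. The median was -0.96 and the summed level 1056 to 1474 CPM in U13A and 2017 to 2368 CPM in U18A. This list also holds spe-51 (T22B11.1), a gene of the spe spermatogenesis family. cbd-1, a chitin-binding protein of the oocyte surface, stood at 69.6, 43.1 and 67.6 CPM against 221, 175 and 170 CPM (log2 -1.65, SE 0.186, edgeR adjusted p 4.00e-04). chs-1, the chitin synthase of the eggshell, was lower by -1.49, and cpg-1, an eggshell proteoglycan, by -1.45 (edgeR adjusted p 8.20e-04 and 1.11e-04). The fold at these genes was not called different from that of the controls: between the controls 10 of 20 RNA regulators and 8 of 15 eggshell genes were lower on the U13A side, and edgeR called 0 of 20 and 0 of 15 in the contrast, with 9 and 0 at an unadjusted p under 0.05. DESeq2 called 1 and 0.

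With all 6 libraries in the fit, yolk, sperm and meiotic genes had smaller shares of calls than the oocyte lists. Of 6 vitellogenins, the yolk proteins that the gut makes for oocytes, 1 was lower, or 16.7%, near the 17.1% of all genes. This call was lost without any 1 library other than U13A replicate C. The summed level of the vitellogenins was 38935 to 50340 CPM in U13A and 43897 to 52646 CPM in U18A. Of 31 major sperm proteins 1 was called, or 3.23%. The count was 0 without any 1 library other than U13A replicate C, and 21 without U13A replicate C. Meiotic axis and synaptonemal genes had 0 of 19 called between the mutants, with 8 higher on the U13A side between the controls, and DESeq2 also called 0 of 19 between the mutants. An unadjusted p under 0.05 was found for 2 of the 19 in edgeR, and 1 was called without U13A replicate C.

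The nematode-specific peptide families nspa to nspe had 23 of 54 members lower in U13A and 1 higher, or 44.4%, beside 17.1% of all genes. The median was -0.30. The count was 13 without U13A replicate A and 14 without U18A replicate B. Their controls went otherwise, with 12 higher and 9 lower, and the contrast called 17 negative and 1 positive. nspb-8 stood at 2.02, 2.31 and 3.75 CPM against 7.13, 5.62 and 5.37 CPM (log2 -1.14, SE 0.226, edgeR adjusted p 0.00318), with 0.18 between the controls and a contrast of -1.32 (edgeR adjusted p 0.0224). nspe-7 was lower by -1.40 and nspc-4 higher by 0.89. Members of these families are similar in sequence, and reads may be split between them.

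**Figure D3:**
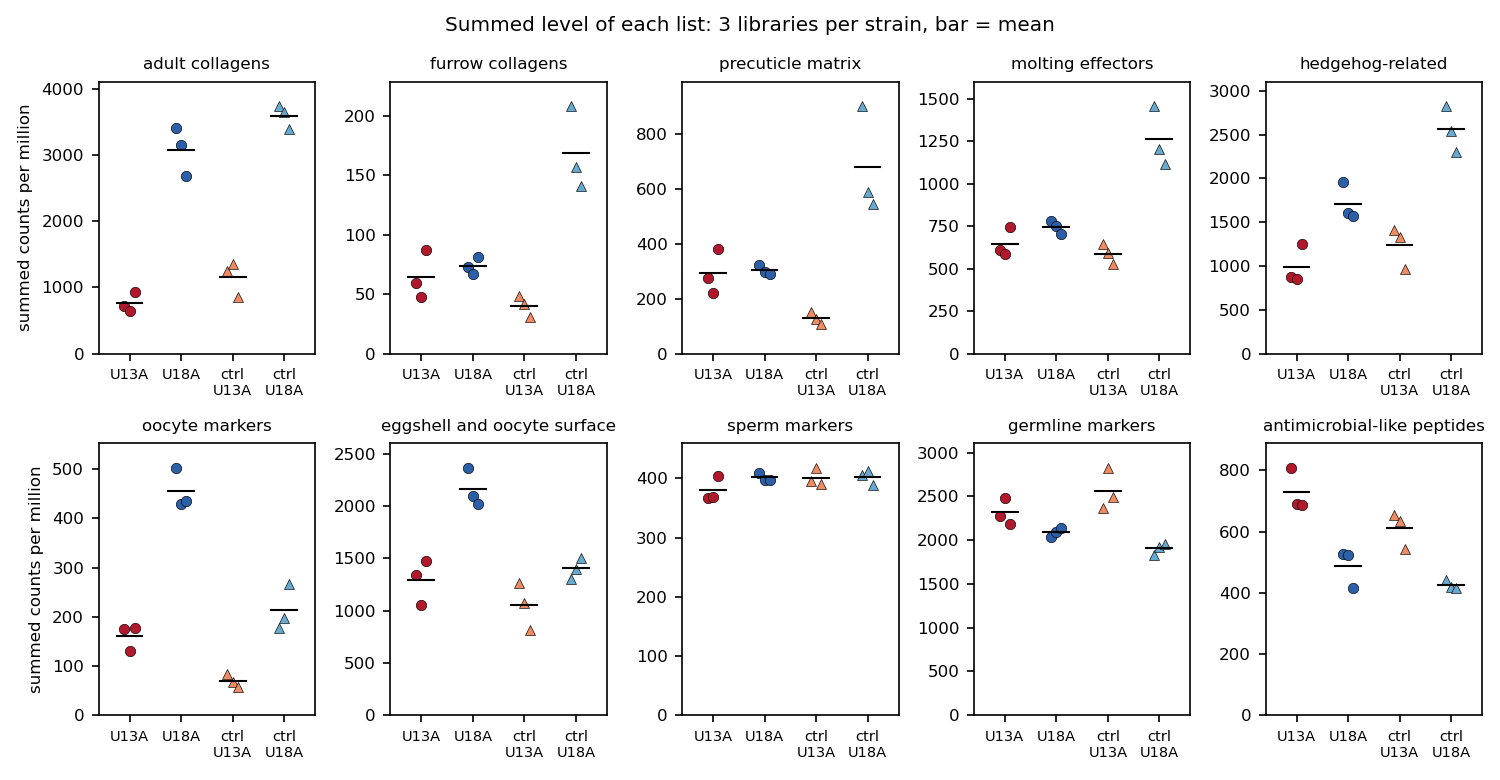
Summed CPM of 10 lists, 1 panel each with an axis from 0, with 3 libraries of each strain as points and the mean as a bar. Oocyte markers lie at 131 to 178 CPM in U13A and 430 to 503 CPM in U18A, while sperm markers lie between 367 and 418 CPM in all 4 strains.

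Lists of gut and defence genes went different ways. Intestinal proteases, lysozymes and saposin-like proteins had 18 of 45 higher and 2 lower, or 44.4%, with a median of 0.26. Between the controls 15 of 47 tested were higher on the U13A side and 4 lower, or 40.4%. Of the 20 mutant calls 11 were also called in the same direction between the controls. The contrast called 6 positive and 2 negative. spp-1, a saposin-like antibacterial protein, stood at 100, 73.4 and 81.0 CPM against 39.3, 36.9 and 39.8 CPM (log2 1.13, SE 0.116, edgeR adjusted p 1.63e-05). spp-23 was higher by 1.20, with a control difference of -0.047 and a contrast of 1.25 (edgeR adjusted p 0.00502). lys-10, a lysozyme, was higher by 1.24 and lys-7 lower by -0.85. The intestine markers themselves summed to 4786 to 7274 CPM in U13A and 5538 to 6744 CPM in U18A, with 1 of 6 called. That call was lost without U13A replicate A, U18A replicate B or U18A replicate C.

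Small secreted peptides of the epidermis that are known from infection and wounding had 11 of 30 higher and 1 lower, or 40.0%. Their summed level was 687 to 809 CPM in U13A and 415 to 528 CPM in U18A. Between the controls 16 of 36 tested were higher on the U13A side and 9 lower, or 69.4%. The contrast called 3 positive and 7 negative, so as a list they were not higher in the mutants alone. nlp-28 stood at 55.4, 39.5 and 37.7 CPM against 15.6, 15.5 and 11.8 CPM (log2 1.63, SE 0.163, edgeR adjusted p 3.50e-05), and nlp-29 was higher by 1.18 (edgeR adjusted p 0.00212). fip-5 stood at 15.2, 12.0 and 17.8 CPM against 5.66, 4.70 and 6.0 CPM, with no difference called between the controls (0.028, edgeR adjusted p 0.940) and a contrast of 1.42 (edgeR adjusted p 0.0125). cnc-4, a caenacin, was lower by -1.01.

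Enzymes that oxidise and conjugate small molecules differed in both directions. Of 50 cytochromes P450 13 were higher and 7 lower, or 40.0%, and 12 were called when at least 10 counts were asked of every library. cyp-13A2 stood at 8.37, 6.37 and 6.69 CPM against 2.94, 2.81 and 3.37 CPM (log2 1.20, edgeR adjusted p 3.86e-04), with a control difference of -0.20 and a contrast of 1.40 (edgeR adjusted p 7.57e-04). cyp-36A1 was lower by -1.5. Of 90 UDP-glycosyl and glutathione transferases 23 were higher and 8 lower, or 34.4%, and the contrast called 13 positive and 1 negative. ugt-13 stood at 16.8, 14.2 and 19.6 CPM against 5.43, 4.48 and 2.92 CPM (log2 2.03, SE 0.201, edgeR adjusted p 2.01e-05), and gst-24 was lower by -1.26.

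Fatty acid enzymes and carriers had 16 of 77 higher and 6 lower, or 28.6%, beside 17.1% of all genes. Between the controls 12 of 76 tested were higher on the U13A side and 13 lower, or 32.9%. The contrast called 8 positive and 2 negative. acs-1, an acyl-CoA synthetase, stood at 313, 340 and 271 CPM against 170, 180 and 190 CPM (log2 0.78, SE 0.102, edgeR adjusted p 1.46e-04), with -0.36 between the controls and a contrast of 1.14 (edgeR adjusted p 8.00e-04). ech-9, an enoyl-CoA hydratase, was higher by 1.03 and fat-5, a palmitoyl-CoA desaturase, lower by -1.05. The C-type lectins had 9 of 93 higher and 5 lower, or 15.1%, near the share of all genes, and 8 were called without U18A replicate B and 9 without U13A replicate A. clec-146 stood apart at 8.14, 7.05 and 9.0 CPM against 1.02, 0.835 and 0.686 CPM (log2 3.29, SE 0.223, edgeR adjusted p 2.71e-07).

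The CUB-like and dod genes, many of them known from the response to pathogens, had 3 of 13 higher and 5 lower, or 61.5%, with a median of -0.17, and 4 were called without U13A replicate A and 4 without U18A replicate B. dod-21 ran in opposite directions in the 2 comparisons. It stood at 73.1, 61.0 and 75.8 CPM in U13A against 36, 43.9 and 45.3 CPM in U18A (log2 0.74, SE 0.116, edgeR adjusted p 6.24e-04), and its controls at 10.2, 7.94 and 8.53 CPM against 55.6, 68.8 and 76.7 CPM. The U13A control was the low strain, and the contrast was 3.67 (edgeR adjusted p 2.26e-09). Its neighbour C32H11.9 had like counts in every library, so reads cannot be assigned to either. irg-1, a pathogen response gene, was lower by -1.27 (edgeR adjusted p 4.11e-05) and higher by 0.62 between the controls (edgeR adjusted p 0.0475).

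Lists of housekeeping genes had shares of calls below or near the 17.1% of all genes. Cytosolic ribosomal proteins had 1 of 80 higher and 6 lower, or 8.75%, which is below the share of all genes. rpl-25.2 was the exception in size, at 934, 1035 and 1192 CPM against 1899, 2170 and 2197 CPM (log2 -0.99, SE 0.113, edgeR adjusted p 4.58e-05). Mitochondrial ribosomal proteins had 10 of 65 higher and 0 lower, or 15.4%, with a median of 0.14, and mrps-11 as an example was higher by 0.55. Histones had 12 of 78 lower and 0 higher, or 15.4%, near the share of all genes, and DESeq2 called 20 of the 78. The edgeR counts of these 3 lists moved with single libraries. Without U13A replicate C they were 23, 16 and 31, and without U18A replicate A they were 4, 4 and 5. They were 2, 5 and 6 without U13A replicate A, 3, 4 and 5 without U13A replicate B and 3, 7 and 6 without U18A replicate C. Without U18A replicate B the ribosomal lists gave 2 and 4.

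Nuclear hormone receptors had 14 of 156 higher and 3 lower, or 10.9%, neuropeptides and insulins 6 of 80 higher and 8 lower, or 17.5%, and F-box and MATH genes 11 of 152 higher and 17 lower, or 18.4%. The receptors were below the 17.1% of all genes and the other 2 lists near it. Each of these counts was lower without U18A replicate B, at 9, 7 and 11, and without U13A replicate A, at 10, 7 and 16. The receptor count was 7 or 8 without U13A replicate B, U18A replicate A or U18A replicate C, and the F-box count 13 without U13A replicate B and 15 without U18A replicate A. nlp-25 was lower at 2.39, 3.6 and 3.17 CPM against 12.9, 12.9 and 14.3 CPM (log2 -2.09, SE 0.159, edgeR adjusted p 9.03e-07), and the controls differed alike (-2.05). fbxa-72 was higher at 41.7, 39.3 and 39.4 CPM against 14.5, 15.4 and 13.5 CPM (log2 1.47, SE 0.103, edgeR adjusted p 3.66e-07), with -0.097 between the controls and a contrast of 1.57 (edgeR adjusted p 2.34e-05). Of 23 cell cycle genes 6 were lower, or 26.1%, with 3 called without U13A replicate A, U18A replicate B or U18A replicate C. The B-type cyclins cyb-1, cyb-2.1 and cyb-2.2 were lower by -0.54, -0.91 and -0.96.

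**Figure D4:**
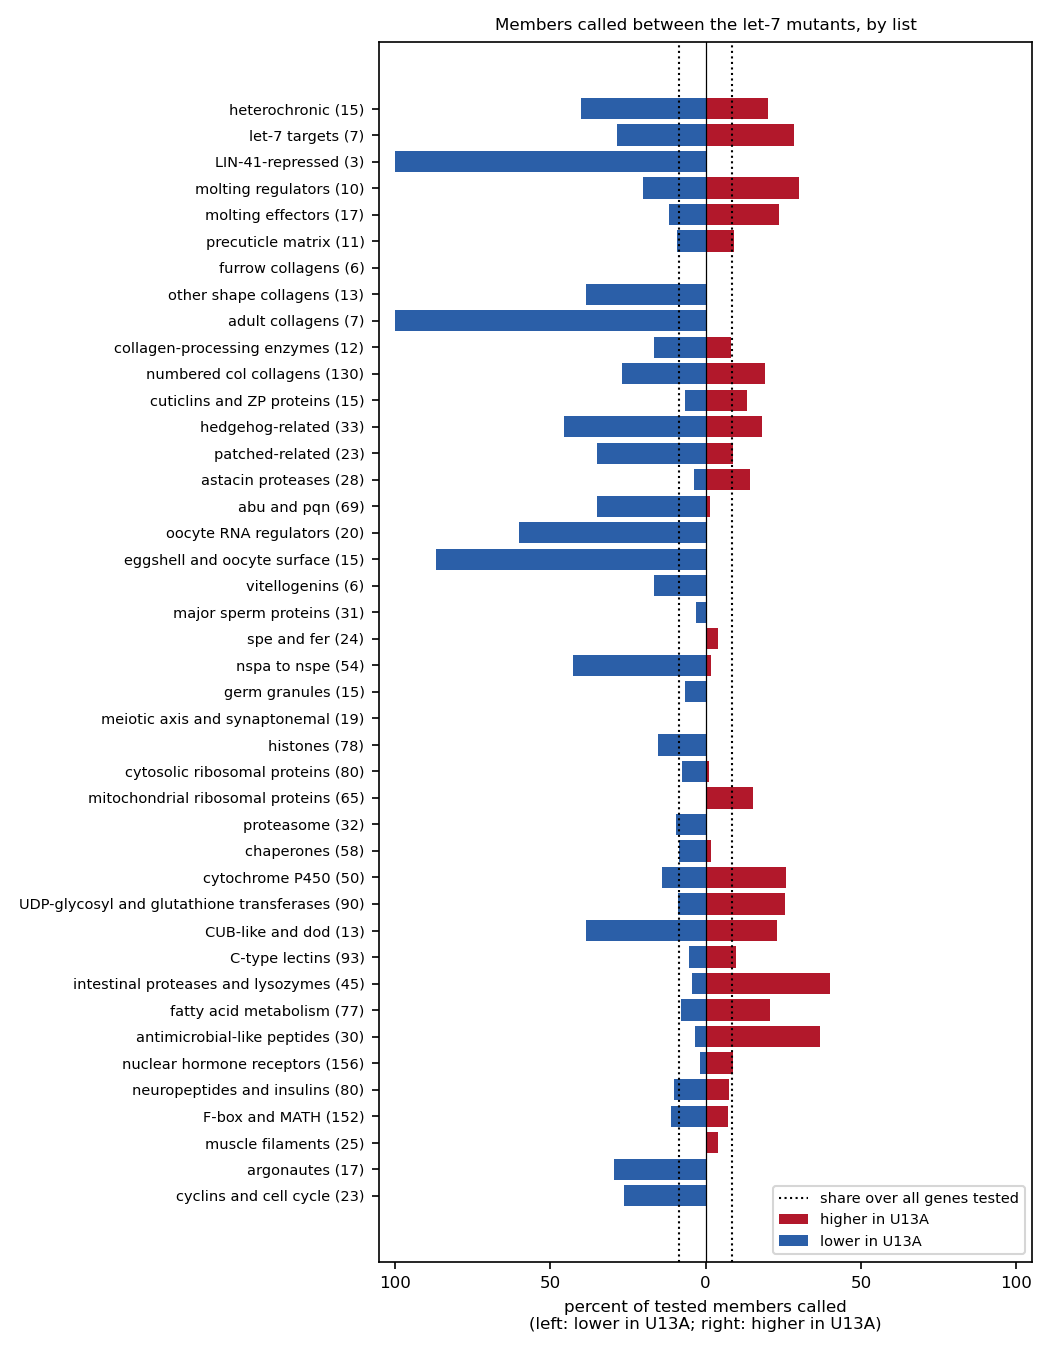
Percent of the tested members of each of 42 lists that were called higher in U13A (right, red) or lower (left, blue), with the number tested in parentheses and dotted lines at the shares over all genes, 8.66% and 8.45%. The bars reach 100% to the left for the adult collagens and the LIN-41-repressed genes and are absent for the furrow collagens and the meiotic genes.

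The single genes with the largest differences follow. They were taken from called genes whose CPM did not overlap between the mutants, so that separation was a condition of the choice. haf-6 (WBGene00001816, chromosome I, 1162880 to 1175809, WBcel235), a half-molecule ABC transporter needed for efficient RNA interference, stood at 35.9, 30.7 and 31.5 CPM in U13A and at 1.24, 1.06 and 1.09 CPM in U18A (log2 4.86, SE 0.160, edgeR adjusted p 2.12e-10). The controls were both near 1 CPM with a difference of -0.16, so the U13A mutant was the high strain, and the contrast was 5.02 (edgeR adjusted p 3.60e-08). Y48G8AL.7 overlaps haf-6 on the other strand. oac-29 (chromosome V, 8631811 to 8635675), an acyltransferase family gene, stood at 5.45, 4.59 and 5.31 CPM against 0.00, 0.379 and 0.40 CPM, with 0.07 between the controls and a contrast of 3.98 (edgeR adjusted p 1.90e-04).

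Other genes differed between the mutants and between the controls in the same direction. F14H3.12 (chromosome V, 16074117 to 16075323) stood at 7.69, 9.22 and 8.13 CPM against 0.452, 0.607 and 0.343 CPM (log2 4.18, SE 0.243, edgeR adjusted p 5.55e-08), and its control difference was 4.04. dhs-26 (chromosome X, 3360722 to 3362493), a short-chain dehydrogenase, had 123, 200 and 126 counts in U13A and 2, 1 and 1 counts in U18A, too few for a fold. Its controls had 16, 24 and 34 counts against 3, 8 and 6 counts. The U13A control, at 1.92, 1.94 and 2.50 CPM, was below the U13A mutant, at 9.19, 7.12 and 7.27 CPM, and the contrast was called (2.58, edgeR adjusted p 0.0205). F52E4.5 (chromosome X, 3085828 to 3087345) had 0, 1 and 1 counts in U13A and 125, 131 and 196 counts in U18A, and it had 0 counts in all 3 U13A controls. numr-1 (chromosome III, 7364385 to 7365230), a metal-responsive nuclear protein, stood at 2.91, 3.85 and 5.13 CPM against 131, 145 and 101 CPM (log2 -4.97, SE 0.196, edgeR adjusted p 4.31e-08). Its near-identical copy numr-2 was lower by -4.80, and the controls differed by -4.23 and -3.97. R17.3 (chromosome III, 10832936 to 10839451) stood at 0.971, 1.03 and 1.04 CPM against 24.4, 21.9 and 14.7 CPM.

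dpy-1 (chromosome III, 2034988 to 2048007), needed for normal body shape, stood at 18.7, 18.1 and 24.2 CPM against 1.24, 1.06 and 1.94 CPM (log2 3.77, SE 0.211, edgeR adjusted p 4.15e-08). Both controls were above the U18A mutant, at 27.2, 24.7 and 19.3 CPM and 8.37, 5.86 and 5.36 CPM, and the contrast was 1.9 (edgeR adjusted p 0.00181). Y48E1B.8 was higher by 3.35, K02E7.6 by 3.46 and C29F3.3 by 3.38. The contrast was called for Y48E1B.8 (2.35) and K02E7.6 (2.15), not for C29F3.3 (1.38, edgeR adjusted p 0.0986).

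**Figure D5:**
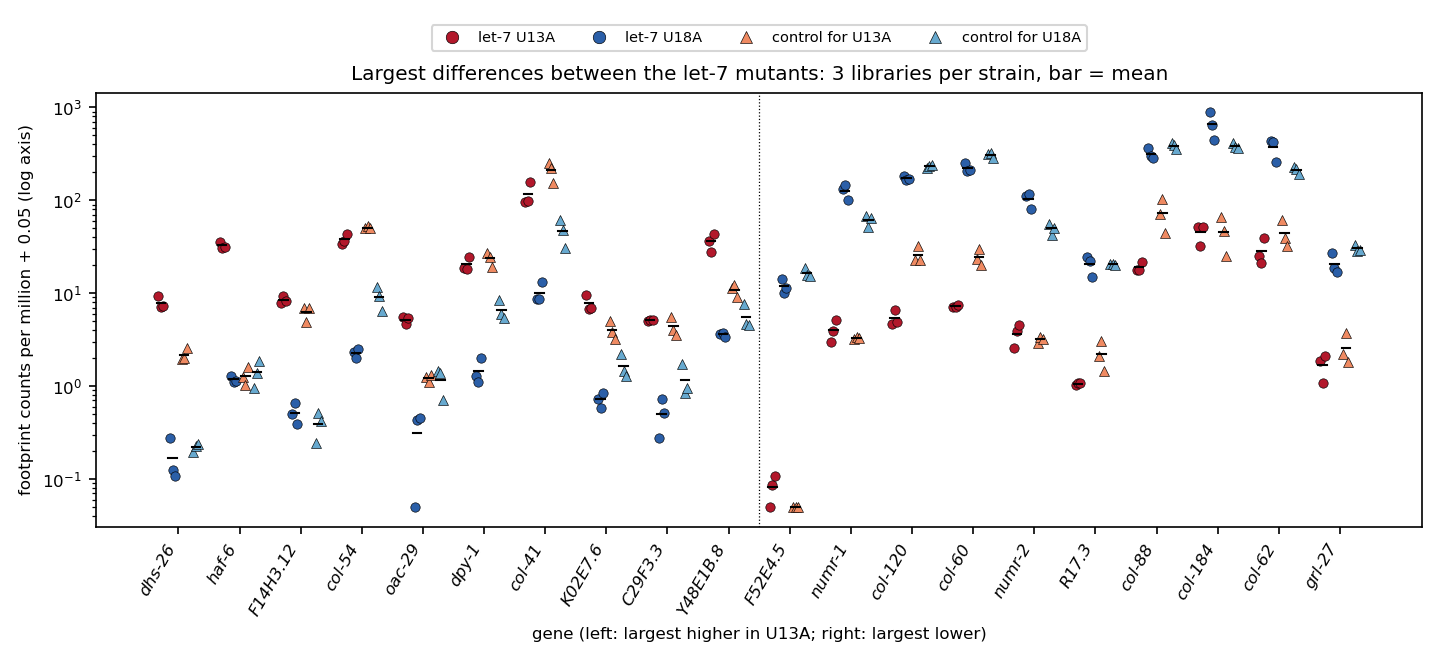
Footprint CPM plus 0.05, on a log axis, of the 20 genes with the largest differences between the mutants, higher in U13A to the left of the dotted line and lower to the right, with 3 libraries of each strain as points and the mean as a bar. The genes were taken from called genes whose CPM did not overlap between the mutants. haf-6 is high in the U13A mutant and near 1 CPM in the other 3 strains, whereas numr-1, numr-2 and col-60 are low in both U13A-side strains.

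The 3 largest contrasts in each direction were taken among called genes whose CPM did not overlap between the mutants. They also held genes with small differences between the mutants. tiar-2, a TIA-1-related RNA-binding protein, stood at 49.9, 53.1 and 43.4 CPM in U13A and 38, 39.1 and 42.1 CPM in U18A (log2 0.30, edgeR adjusted p 0.0629), while its U13A control stood at 2.53, 3.48 and 2.79 CPM and its U18A control at 36, 39.9 and 43.5 CPM. The contrast was 4.04 (edgeR adjusted p 2.47e-10). In the other direction cyp-37B1 was lower by -1.53 between the mutants (edgeR adjusted p 4.98e-04) and higher by 1.67 between the controls, a contrast of -3.21 (edgeR adjusted p 0.00135). F46G11.6 and T12G3.4 were lower by -0.83 and -0.39 between the mutants, calls that were each lost without 5 of the 6 libraries taken singly, and had contrasts of -4.28 and -3.16.

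By chromosome, calls between the mutants were spread over the genome. Of the tested genes, 96.9% were placed on the WBcel235 annotation. The share called ran from 13.6% on chromosome III to 20.4% on chromosome X and 20.3% on chromosome V, beside 17.1% over all genes, and the median log2 difference on X was -0.075.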

How the data were processed

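Ribosome-protected fragments of 12 libraries of whole mid-L4 larvae were deposited by the authors as 2 tables of raw read counts per gene, 1 for each mutant with its control. Per the submitters' processing notes, cutadapt 1.9, Bowtie2 2.3.4.3 and the WBcel235 assembly were used; the counting program, its use of strand and its treatment of reads with several matches are not given in the sources used here. The tables held 46711 and 46722 rows, and the 46711 shared names were joined; 21 joined names each cover 2 genes. The 11 names in only the U18A table were left out.

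Each comparison was fitted with edgeR 4.0.16 in R 4.3.3 (filterByExpr, TMM scaling, robust quasi-likelihood fit, two-sided, Benjamini-Hochberg adjustment over all genes tested). The mutants were fitted on their 6 libraries, the controls on theirs and the contrast on all 12. Printed CPM use 1 TMM scale over the 12 libraries. The biological coefficient of variation was 10.8% for the mutants. No label says that a replicate letter pairs libraries of different strains, and the letter was not in the main fits. No label says that replicates came from separate cultures, so p-values measure the spread between these samples. With 3 against 3 libraries a permutation test of 1 gene cannot give a p under 0.1. On simulated counts for the mutant comparison, 88.4% of 198 changed genes were recovered, with a median change of 0.979 on the log2 scale, and 7.41% of calls were false. The changed genes were 198 of 13025 tested there and all were given a change of the same size, up or down. The real calls are more numerous and vary in size, so these rates need not hold for them.

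Alternatives were DESeq2 1.42.0, other scalings and filters, a replicate block, equal depth and leaving out each library. Genes were named by a rule: the 10 largest differences in each direction and the 3 largest contrasts, up to 3 called members per list and direction, and all timing genes. Genes outside it were chosen after their values were seen. The members, lists and tests were chosen with earlier results of these data known. Neighbouring genes are said to have like counts where their counts differ by under 1.25 times in each of the 12 libraries. Of the tested genes, 96.9% could be placed on the Ensembl annotation of WBcel235.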

Additional observations from a re-analysis of the deposited data

Results flagged for a closer look

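For 759 genes the difference between the mutants departed from that between the controls, by the contrast over all 12 libraries (edgeR adjusted p under 0.05 for each). Values below are log2 contrasts, the U13A minus U18A difference of the mutants less that of the controls, and no explanation of them was tested.

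Among timing and molting genes the contrast was 1.72 for hbl-1, 1.78 for daf-12, 0.96 for lin-42, 1.12 for blmp-1, 1.69 for C01H6.2 (mlt-2), 1.05 for Y39C12A.1 (mlt-3), 0.71 for nekl-3, 1.05 for mlt-10 and 1.26 for mlt-9. All are positive, but they arise in different ways: daf-12 was higher in the U13A mutant than in the U18A mutant, whereas for mlt-10 and mlt-9 the U13A mutant was lower and the gap between the controls was wider.

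Among genes of the cuticle and its matrix it was 2.94 for let-653, 1.30 for bli-1, 1.01 for bli-2, 0.95 for dpy-11 (a thioredoxin-like enzyme), 2.78 for col-176, 1.57 for col-54, 2.14 for cutl-14, 0.71 for wrt-4, 0.94 for wrt-6 and 1.9 for dpy-1. It was negative for col-120 (-1.79), col-60 (-1.31) and col-88 (-1.65).

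Among peptide, gut and defence genes it was 1.37 for nspc-4, -1.54 for nspb-9, -1.32 for nspb-8, 1.40 for cyp-13A2, 0.63 for cyp-25A3, -3.21 for cyp-37B1, 3.67 for dod-21, 1.61 for dod-24, -1.89 for irg-1, 1.87 for clec-146, 1.43 for clec-3, 1.25 for spp-23, 2.88 for lipl-6, 1.14 for acs-1 and 1.42 for fip-5.

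Among single genes it was 5.02 for haf-6, 3.98 for oac-29, 2.58 for dhs-26, 2.15 for K02E7.6, 2.35 for Y48E1B.8, 4.04 for tiar-2, -4.28 for F46G11.6, -3.16 for T12G3.4, 1.57 for fbxa-72 and 0.53 for tni-1, a troponin I gene. For dhs-26 the U18A mutant had 2, 1 and 1 counts, so its fitted value is not a bound.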

How the results depend on the processing

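Against 2248 genes called between the mutants, 3224 between the controls and 759 in the contrast, other tools, scalings and filters gave 1884 to 2506, 2442 to 3399 and 581 to 890. Asking for a change beyond 1 on the log2 scale (glmTreat) gave 177, 258 and 56. Leaving out 1 library at a time gave 1368 to 2797, 2112 to 3650 and 542 to 775; the lowest mutant count came without U18A replicate B, and the control count was 2121 without the U18A control replicate A. With the replicate letter as a block the counts were 1888, 4004 and 763. Whether the letters pair samples cannot be decided from 3 libraries per strain. Deviations of same-letter libraries correlated at 0.0658, 0.0821 and -0.179 for the mutants and at 0.158, -0.0258 and 0.159 for the controls. Not every library correlated best with its own letter.

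No named gene that was called changed direction under these alternatives. The lists that moved by over 1.5 times numbered 20 of 50 without U18A replicate B, 19 without U13A replicate A and 19 without U13A replicate C, against 1 to 8 under other tools, scalings, filters and depths and 41 under glmTreat. The share of mutant calls that were higher in U13A was 46.5% to 51.4% across tools, scalings and filters other than glmTreat, and 58.4% without U13A replicate B. The cause of these shifts was not tested. Depth limits genes of few counts such as mab-3, whose groups lie near or under 1 CPM; at equal depth the mutants gave 1884 calls. Alleles, background and table cannot be separated by any of these alternatives.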

Other observations

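Gene families outside the lists were looked at by the prefix of their symbols, after the values were seen, so their counts are descriptions. All 6 pud genes were higher in U13A, by 1.12 to 1.36. pud-4 stood at 14, 13 and 12 CPM in U13A and at 5.88, 4.55 and 4.92 CPM in U18A, and its controls at 16.6, 15.5 and 20.9 CPM against 3.56, 3.20 and 3.56 CPM. The gap was wider between the controls, with a median of 2.29, and all 6 were called negative in the contrast. The pairs pud-1.1 and pud-1.2, and pud-2.1 and pud-2.2, had like counts, so reads cannot be assigned within a pair.

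Aldehyde dehydrogenases, with the prefix alh, had 7 of 12 members higher in U13A and 2 lower, or 75.0%, beside 17.1% of all genes. alh-9 stood at 395, 377 and 407 CPM in U13A and at 166, 162 and 156 CPM in U18A (log2 1.28, SE 0.0890, edgeR adjusted p 3.41e-07). The U13A mutant was above all 3 other strains, and the contrast was 0.88 (edgeR adjusted p 3.35e-04). alh-4 and alh-13 were lower by -0.42 and -0.33.

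Subunits of the vacuolar proton pump, with the prefix vha, had 8 of 19 higher and 0 lower, or 42.1%, with a median of 0.27. Between the controls 1 was higher, with a median of -0.046. The median contrast was 0.35, and edgeR called 0 of 19 in the contrast, DESeq2 1, with 12 at an unadjusted p under 0.05 in edgeR. vha-7 was higher by 0.81, vha-3 by 0.48 and vha-10 by 0.45 (edgeR adjusted p 3.65e-04, 0.0193 and 0.00463).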
